A study of Homo sapiens with 4 samples.

Results

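Carbonic anhydrases catalyse the hydration of carbon dioxide to bicarbonate and a proton. This report describes 7 genes of the family, CA2, CA5B, CA8, CA9, CA11, CA12 and CA13, out of 58735 gene identifiers measured in HCT116 cells, a human colorectal carcinoma line. They were selected on this comparison: CA2 was chosen because its level was lower in both KIF26B siRNA libraries, and the other 6 were taken for comparison of the isoforms. All 4 libraries were made from HCT116 cells 48 h after transfection with small interfering RNA (siRNA). In 2 libraries the cells had received control siRNA and in 2 they had received siRNA against KIF26B, which encodes a kinesin family protein. Poly(A) mRNA was sequenced, and the values are FPKM, fragment counts divided by exon length and by library size, so that levels of different genes can be compared. Since the members were selected on this contrast, their levels and differences are given as description, with no test. The study states in general that its experiments had biological replicates, but does not say so of these libraries. Whether the replicates here were separate cultures is not stated, so the spread between them may be technical. The sample labels also do not say which siRNA each KIF26B siRNA library received, and the study used 2 independent siRNAs against KIF26B in other experiments. These libraries may thus not be replicates of the same siRNA, which cannot be told from the labels.

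Members of this family differ in where they act and in whether they are enzymes at all. CA2 and CA13 are soluble cytosolic enzymes, CA5B is mitochondrial, and CA9 and CA12 are anchored in the plasma membrane with the catalytic domain outside the cell. CA8 and CA11 are carbonic anhydrase-related proteins, which lack the zinc-binding residues needed for catalysis. In the colon, carbonic anhydrases supply bicarbonate and protons for ion transport across the epithelium, and CA9 is a classical target of hypoxia-inducible factor.

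The targeted transcript was scarce in every library. KIF26B measured 0.110 and 0.205 FPKM in control siRNA replicates 1 and 2 and 0.140 and 0.0307 FPKM in KIF26B siRNA replicates 1 and 2, on the strength of 31, 73, 43 and 8 reads. In the library labelled KIF26B siRNA replicate 1 it lay between the controls, so its label was not checked by this transcript, and only replicate 2 lay below both. The reads behind the FPKM values were recovered from the steps of the values, and they summed to between 19193602 and 24853228 per library. Mitochondrial genes held 6.82% and 6.84% of reads in the controls, 9.58% in the library labelled KIF26B siRNA replicate 1 and 7.70% in replicate 2. The epithelial markers EPCAM, KRT8, KRT18, KRT19 and CDH1 were present in all libraries. KRT19 was at 842 and 862 FPKM in the controls and 921 and 951 FPKM in those given KIF26B siRNA, a difference of 0.14 (limma unadjusted p = 0.282). KRT8 was lower in both KIF26B siRNA libraries (485 and 482 against 369 and 350 FPKM, limma unadjusted p = 0.0181, adjusted p = 0.254). KRT18 was lower in both as well (245 and 243 against 175 and 168 FPKM, limma unadjusted p = 0.00987, adjusted p = 0.242). CDH1 measured 24.1 and 23.9 FPKM in the controls against 17.7 and 20.2 FPKM (limma unadjusted p = 0.0593), and EPCAM measured 82.3 and 82.3 against 77.0 and 98.6 FPKM. The part of these markers in the results on the members was not tested. Of 15 fibroblast, leukocyte, endothelial and erythroid markers matched in the files, COL1A1 was at 4.74 to 8.69 FPKM and HBA1 reached 1.31 FPKM in control siRNA replicate 2. The others stayed below 1 FPKM in every library.

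In control siRNA libraries the 7 transcripts spanned a wide range of levels. CA2 led with 25.3 ± 1.51 FPKM (mean ± SD, n = 2), above 88.7% of the 14523 genes tested, which are those averaging 1 FPKM or more. CA11 followed at 7.30 ± 0.299 FPKM and CA13 at 3.21 ± 0.118 FPKM. CA12, CA8 and CA9 lay at 0.983 ± 0.206, 0.907 ± 0.0362 and 0.870 ± 0.0637 FPKM, and their control libraries overlapped in level, so no order among them can be read. CA5B was lowest, at 0.621 ± 0.0176 FPKM. In KIF26B siRNA libraries CA11 led at 17.1 ± 3.86 FPKM and CA2 came second at 10.2 ± 0.738 FPKM. CA13 and CA9 overlapped there, at 1.69 ± 0.988 and 1.63 ± 0.923 FPKM.

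**Figure D1:**
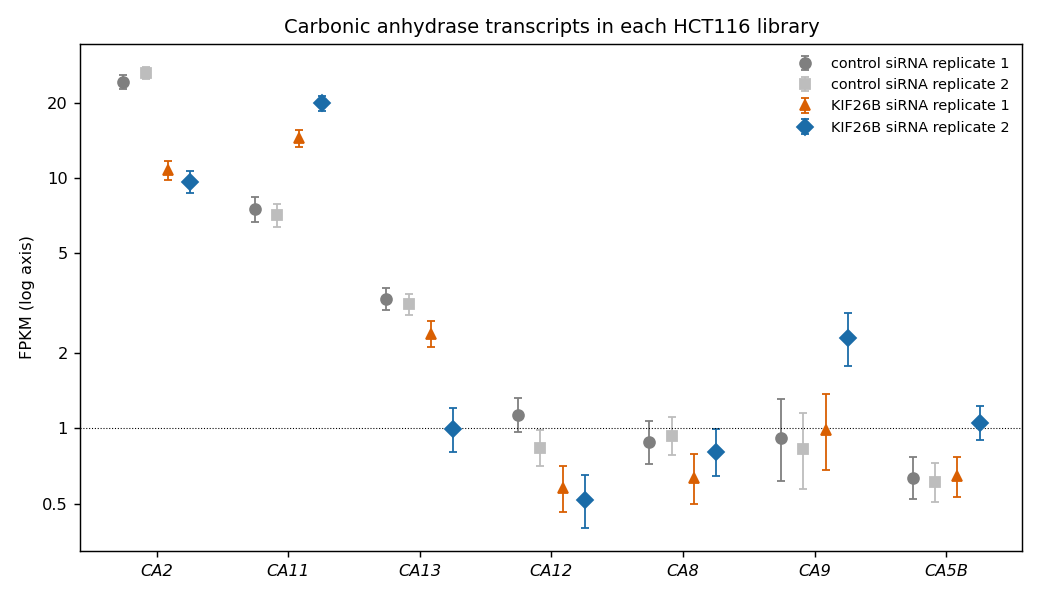
FPKM (log axis) of the 7 carbonic anhydrase genes in each of the 4 libraries, ordered by the control mean; bars are 95% Poisson intervals of the reads and cover counting error only, and the dotted line marks 1 FPKM. CA2 lies at 24.2 and 26.3 FPKM in the controls and at 10.7 and 9.67 FPKM in those given KIF26B siRNA, while CA11 lies at 7.51 and 7.09 against 14.4 and 19.9 FPKM.

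In 4 of the 7 genes, CA2, CA13, CA12 and CA8, both KIF26B siRNA libraries lay below both controls, and in the other 3, CA11, CA9 and CA5B, both lay above both controls. Among the 14523 genes tested, which average 1 FPKM or more, 27.8% showed the first pattern and 24.9% the second. Only CA2, CA9, CA11 and CA13 reached a mean of 1 FPKM over the 4 libraries, and CA9 did so only through the KIF26B siRNA libraries. Of these 4 members, 2 showed the first pattern and 2 the second. Since the contrast selected the members, nothing is read from these counts.

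CA2 (ENSG00000104267, chromosome 8, 85464007 to 85481493 in RefSeq GRCh38.p14), the abundant cytosolic enzyme, measured 24.2 and 26.3 FPKM in control siRNA replicates 1 and 2 and 10.7 and 9.67 FPKM in KIF26B siRNA replicates 1 and 2. These values rested on 1009, 1380, 486 and 371 reads. Both KIF26B siRNA libraries were low, close to each other and far from either control. The mean was 40.3% of the control mean, which is 2.48-fold lower. The difference on the log2(FPKM + 1) scale, which understates the change of low genes, was −1.23, with −1.16 in replicate 1 and −1.30 in replicate 2. The KIF26B siRNA libraries differed from each other by 0.13 on this scale, and the controls by 0.12. In bulk RNA, fewer cells that express a gene and less of its RNA per cell cannot be told apart.

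CA13 (ENSG00000185015, chromosome 8, 85245458 to 85284073), a second cytosolic isozyme, measured 3.29 and 3.12 FPKM in the controls and 2.39 and 0.991 FPKM in KIF26B siRNA replicates 1 and 2. Its reads numbered 357, 426, 282 and 99. The order of the groups was that of CA2, but the size of the difference was set mostly by 1 library: replicate 1 stood at 74.5% of the control mean and replicate 2 at 30.9%. On the log2(FPKM + 1) scale the differences were −0.31 and −1.08, with a mean of −0.70. The KIF26B siRNA libraries were thus 0.77 apart, a gap exceeded by 11.2% of all genes tested.

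CA13 and CA2 lie in 1 cluster on chromosome 8 together with CA1 and CA3. CA1, also a cytosolic enzyme, was between 0.0399 and 0.150 FPKM in all libraries, and CA3, a cytosolic isozyme of muscle, was between 0.228 and 0.547 FPKM. Among the protein-coding genes starting within 1 Mb of CA2 and averaging 1 FPKM or more, LRRCC1, a centrosomal protein gene, differed by −0.41 (SE 0.178, limma adjusted p = 0.350). E2F5, a transcription factor of the cell cycle, differed by 0.27 (SE 0.116, limma adjusted p = 0.348). RBIS differed by 0.16 (SE 0.176, limma adjusted p = 0.684), and WWP1, a ubiquitin ligase gene, differed by −0.02 (SE 0.109, limma adjusted p = 0.934). None of these 4 neighbours passed at an unadjusted p of 0.05, and E2F5 and RBIS had estimates above 0 where CA2 and CA13 lay below.

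CA12 (ENSG00000074410, chromosome 15, 63321378 to 63381846), a membrane-bound enzyme facing outward, measured 1.13 and 0.837 FPKM in the controls and 0.576 and 0.515 FPKM in KIF26B siRNA replicates 1 and 2. The reads were 162, 151, 90 and 68. Either KIF26B siRNA library was lower than either control, at 58.6% and 52.4% of the control mean, and the controls differed more from each other than the KIF26B siRNA libraries did. The counting interval of KIF26B siRNA replicate 1 reached 0.708 FPKM, just under the 0.709 FPKM at which that of control siRNA replicate 2 began.

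CA9 (ENSG00000107159, chromosome 9, 35673928 to 35681159), the other membrane-bound enzyme, measured 0.915 and 0.825 FPKM in the controls and 0.981 and 2.29 FPKM in KIF26B siRNA replicates 1 and 2. It was counted from only 30, 34, 35 and 69 reads. Replicate 2 alone was high, at 263% of the control mean. The library labelled KIF26B siRNA replicate 1 stood at 113%, with a 95% Poisson interval of 0.683 to 1.36 FPKM that covered both controls. The exons of CA9 share 571 bases with ARHGEF39 on the opposite strand. The strand setting of the counting is not given, and reads of the pair cannot be told apart there. ARHGEF39 measured 4.64 and 5.20 FPKM in the controls and 2.48 and 3.43 FPKM in those given KIF26B siRNA, the reverse of the order of CA9.

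The sequence before the CA9 start site is shown because hypoxia-inducible factor recognises a core motif, ACGTG, that is searched here on both strands. The 100 bases before the start are given 5′ to 3′ on the plus strand from RefSeq GRCh38.p14, chr9:35673828-35673927, with the match to the reverse complement, CACGT, in capitals:
CA9 promoter: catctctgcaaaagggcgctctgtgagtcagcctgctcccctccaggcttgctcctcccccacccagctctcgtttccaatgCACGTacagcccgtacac
The match begins at position −18 from the start. In the window from 250 bases before to 50 bases after the start, CA9 held 1 match and CA5B held 1, at position 18 after the start. CA12 held 0, which says only that these letters are not in its window. The table of promoters matched 3 of the 7 members and did not hold CA2, CA8, CA11 or CA13. Of 35116 promoters of this length, 21.4% hold the motif on either strand, so a match is common and is given as a description.

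Genes commonly induced by hypoxia were compared with CA9 and CA12 library by library. Of 18 listed genes 17 were tested, and all 17 lay below both controls in the library labelled KIF26B siRNA replicate 1. In KIF26B siRNA replicate 2, 13 of the 17 lay above both controls. Among all genes tested, 45.8% lay below both controls in replicate 1, 44% lay above both in replicate 2, and 14% did both.

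NDRG1, a stress-responsive gene, measured 99.7 and 101 FPKM in the controls, 63.8 FPKM in replicate 1 and 251 FPKM in replicate 2. HK2, the glycolytic hexokinase, measured 37.8 and 38 FPKM in the controls, 22.8 FPKM in replicate 1 and 90.6 FPKM in replicate 2. CA9 was high in replicate 2 like these genes, but in replicate 1 it was not below the controls. CA12 was low in both libraries, as ADM, the gene of the vasodilator peptide adrenomedullin, was: ADM measured 90.2 and 91.8 FPKM in the controls and 56.8 and 55.5 FPKM in those given KIF26B siRNA.

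The largest mean differences of the list were those of ANKRD37 at −0.81 (limma adjusted p = 0.628), ADM at −0.69 (limma adjusted p = 0.242) and BNIP3L at −0.61 (limma adjusted p = 0.685). The median of the list was −0.11, against −0.01 over all genes tested, and it was −0.65 in replicate 1 and 0.41 in replicate 2. The part that this opposition between the libraries has in the CA9 values was not tested.

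**Figure D2:**
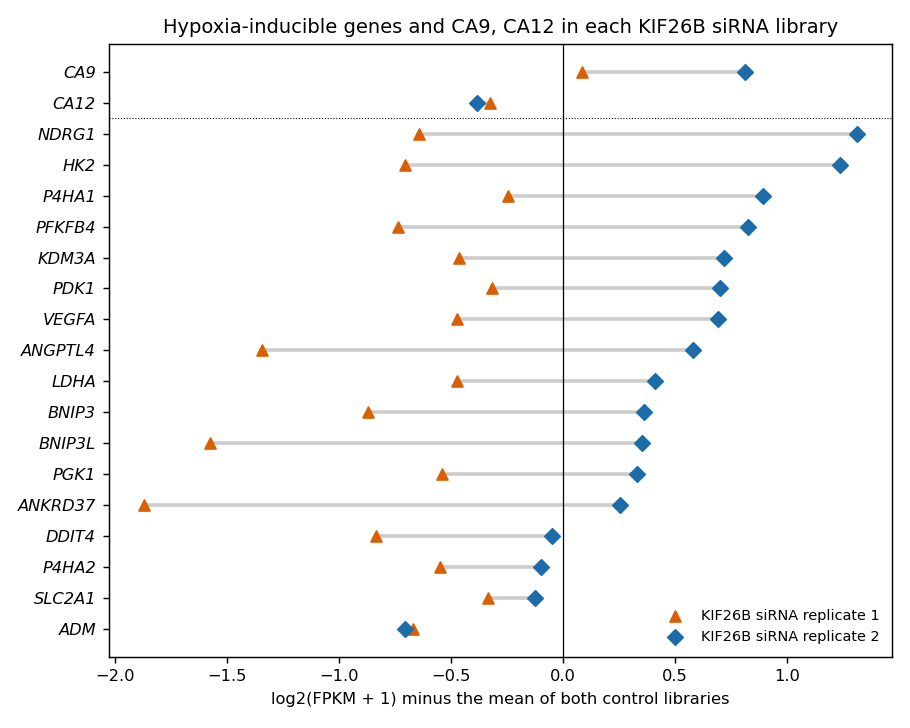
Difference from the control mean on the log2(FPKM + 1) scale in KIF26B siRNA replicate 1 (triangles) and replicate 2 (diamonds) for 17 hypoxia-inducible genes and, above the dotted line, CA12 and CA9. All 17 triangles lie below 0 and 13 of the diamonds lie above it, while CA9 has both symbols above 0 (0.08 and 0.81) and CA12 both below (−0.33 and −0.38).

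CA5B (ENSG00000169239, chromosome X, 15738270 to 15788411), a mitochondrial enzyme, measured 0.634 and 0.609 FPKM in the controls and 0.643 and 1.05 FPKM in KIF26B siRNA replicates 1 and 2, from 106, 128, 117 and 162 reads. Replicate 1 was hardly above the controls, at 103.5% of their mean, and only replicate 2 stood clear of them, at 169%. CA5B has a neighbouring pseudogene copy, CA5BP1, on the same strand with 29 bases of shared exon, and reads of near-identical copies can be split between them by the counting. CA5BP1 measured 2.24, 2.14, 2.41 and 1.59 FPKM in the same order of libraries, so it was lowest where CA5B was highest. The reads of both genes summed to 10.8 and 10.3 per 1000000 fragments in the controls and 11.3 and 12.8 in the KIF26B siRNA libraries. Whether the counting split reads between the pair was not tested, and the values of CA5B are given as uncertain.

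CA8 (ENSG00000178538, chromosome 8, 60185412 to 60281400), a related protein without catalytic activity, measured 0.881 and 0.932 FPKM in the controls and 0.631 and 0.804 FPKM in KIF26B siRNA replicates 1 and 2. The reads numbered 100, 133, 78 and 84. Both KIF26B siRNA libraries were below the controls, but their counting intervals overlapped those of the controls. The log2(FPKM + 1) differences were −0.22 and −0.08.

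CA11 (ENSG00000063180, chromosome 19, 48637946 to 48646187), the other member without catalytic activity, measured 7.51 and 7.09 FPKM in the controls and 14.4 and 19.9 FPKM in KIF26B siRNA replicates 1 and 2. The reads behind these values were 306, 363, 639 and 745. Both KIF26B siRNA libraries were high and the controls were close together. The mean was 2.35-fold higher, a difference of 1.11 on the log2(FPKM + 1) scale, with 0.89 in replicate 1 and 1.33 in replicate 2. SEC1P overlaps 74 exon bases of CA11 on the opposite strand and measured 1.34, 1.06, 1.19 and 1.37 FPKM, a low and level signal.

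The leading member of the family differed between the groups on this per-length scale. The 7 genes summed to 38.6 and 39.8 FPKM in the controls and 30.4 and 35.2 FPKM in KIF26B siRNA replicates 1 and 2. CA2 held 62.8% and 66.3% of the sum in the controls and 35.3% and 27.5% in the KIF26B siRNA libraries. CA11 held 19.5% and 17.8% in the controls and 47.5% and 56.5% in the KIF26B siRNA libraries. The ratio of CA2 to CA11 was 3.22 and 3.72 in the controls and 0.743 and 0.487 in the KIF26B siRNA libraries, so the order of the pair was the same within each group and opposite between the groups.

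Split by catalytic activity, the 5 enzymes summed to 30.2 and 31.7 FPKM in the controls and 15.3 and 14.5 FPKM in those given KIF26B siRNA. The 2 members without activity, CA8 and CA11, summed to 8.39 and 8.02 FPKM in the controls and 15.1 and 20.7 FPKM in those given KIF26B siRNA. They were 21.8% and 20.2% of the family sum in the controls and 49.6% and 58.8% in the KIF26B siRNA libraries. The members of a class did not move together, and the sums follow mainly CA2, which was selected for being lower, and CA11. CA8 was lower where CA11 was higher, and among the enzymes CA9 and CA5B were above the controls while CA2, CA12 and CA13 were below. Without CA2 and CA11, the remaining 5 genes summed to 6.85 and 6.33 FPKM in the controls and 5.22 and 5.65 FPKM in those given KIF26B siRNA. These are mRNA levels, and protein and enzyme activity were not measured here.

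The other 8 genes of the family listed were below 1 FPKM in every library, so none was tested. CA14, a membrane-bound enzyme, was the highest of them, with 0.904 and 0.751 FPKM in the controls and 0.708 and 0.924 FPKM in those given KIF26B siRNA, groups that overlapped. CA7, a cytosolic enzyme, was between 0.0595 and 0.152 FPKM. CA4, a membrane-anchored enzyme, had a single read in the library labelled KIF26B siRNA replicate 1. CA5A, CA6 and CA10, which encode a mitochondrial enzyme, a secreted enzyme and a protein without activity, were at 0 in all libraries.

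Besides the members, 6 pathway lists holding 84 genes were read, of which 44 were tested. One list held the other carbonic anhydrases, with 0 tested. The tested genes were 5 bicarbonate transporters, 11 of proton and lactate extrusion, 9 of oxygen sensing, 17 hypoxia-inducible and 2 of absorptive colon cells. Most of the 44 were thus not acid-base transporters. By limma with the study's thresholds (unadjusted p below 0.05 and a log2 change beyond 1), 0 of the 44 were lower and 0 were higher. Over all 14523 genes tested, 0.606% were lower and 0.813% were higher. At an unadjusted p below 0.05 alone, 3 of the 44 were lower and 1 was higher, against 8.68% and 7.74% of all genes. No gene of the 14523 reached an adjusted p of 0.05 in limma, where the smallest was 0.242. The median difference of the 44 was −0.08, against −0.01 over all genes tested.

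Among bicarbonate transporters, 5 of 16 were tested, and the counts above leave out the rest. SLC4A8 measured 0.810 and 0.694 FPKM in the controls and 0.182 and 0.203 FPKM in those given KIF26B siRNA. SLC26A7 went the other way, with 0.284 and 0.323 FPKM in the controls and 0.754 and 1.11 FPKM in those given KIF26B siRNA. Both averaged below 1 FPKM and were not tested. SLC4A7, a sodium bicarbonate cotransporter, measured 11.4 and 11.3 FPKM in the controls and 15.3 and 14.3 FPKM in those given KIF26B siRNA, a difference of 0.35 (unadjusted p = 0.0349, limma adjusted p = 0.284). It was higher in both KIF26B siRNA libraries than in either control. SLC26A6, an anion exchanger, measured 17.6 and 17.7 FPKM in the controls and 9.89 and 22.8 FPKM in those given KIF26B siRNA, which lay on opposite sides of the controls. SLC4A3 differed by −0.20 (limma adjusted p = 0.502).

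Among genes of proton and lactate extrusion, 11 of 16 were tested. NHERF1, a scaffold protein of membrane transporters, measured 54.4 and 55.0 FPKM in the controls and 42.8 and 36.7 FPKM in those given KIF26B siRNA. Both of the latter were below either control, and the difference was −0.46 (unadjusted p = 0.0258, limma adjusted p = 0.272). SLC9A5 differed by 0.38 (limma adjusted p = 0.521) and SLC16A1, a lactate transporter, by −0.37 (limma adjusted p = 0.470). The median of the list was −0.30, against −0.01 over all genes tested. Taken library by library, the median was −0.088 in KIF26B siRNA replicate 1 and 0.007 in replicate 2. Neither library alone thus had a median as low as that of the mean differences.

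Among genes of oxygen sensing, 9 of 10 were tested and none passed at an unadjusted p of 0.05. HIF1A, the oxygen-regulated subunit of hypoxia-inducible factor, measured 33.5 and 35.3 FPKM in the controls and 36.3 and 21.5 FPKM in those given KIF26B siRNA, so replicate 2 alone was low. HIF1AN, its asparaginyl hydroxylase, differed by −0.21 and EGLN2, a prolyl hydroxylase, by 0.12 (limma adjusted p = 0.533 and 0.620).

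CA2 is also a gene of absorptive colon cells. Of 16 other genes of that cell type only 2 were tested, 5 were at 0 in all libraries and the highest value was 4.71 FPKM, so this programme was scarcely expressed. CDHR5, a brush border protocadherin, measured 2.33 and 2.24 FPKM in the controls and 2.70 and 2.90 FPKM in those given KIF26B siRNA. SLC26A2, a sulfate transporter, measured 4.71 and 4.55 FPKM in the controls and 3.83 and 3.25 FPKM in those given KIF26B siRNA. The pair differed in opposite directions, by 0.21 and −0.31 (limma adjusted p = 0.418 and 0.331).

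The genes whose profile over the 4 libraries was nearest to that of CA2 were FAM43A, RNU6-141P, NGFR, THBS1 and NCEH1. Likeness was the Euclidean distance between log2(FPKM + 1) profiles centred on the controls, and these 5 lay at 0.117, 0.129, 0.189, 0.190 and 0.217. FAM43A measured 11.8 and 11.5 FPKM in the controls and 4.69 and 3.97 FPKM in those given KIF26B siRNA. NGFR, a neurotrophin receptor gene, measured 10.5 and 10.6 FPKM in the controls and 3.97 and 3.20 FPKM in those given KIF26B siRNA. THBS1, which encodes the matrix protein thrombospondin, measured 4.46 and 4.58 FPKM in the controls and 1.31 and 1.5 FPKM in those given KIF26B siRNA. NCEH1, a cholesterol ester hydrolase gene, was at 43.9% and 31.7% of the control mean in the KIF26B siRNA libraries, and RNU6-141P rested on 1 to 8 reads a library. As they were picked for likeness to a selected gene, their differences are a description too.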

How the data were processed

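RNA of HCT116 cells was sequenced in 4 libraries, 2 per group, with groups and replicate numbers taken from the sample labels. The authors deposited FPKM, 1 value per gene and library. Their processing notes name HISAT2 2.0.5, featureCounts 1.5.0-p3 and hg38, whereas the study's methods name hg19. The files hold no coordinates, and those given are RefSeq GRCh38.p14. Overlaps were read from GENCODE on GRCh37. The strand setting of the counting is not given in the sources used here.

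Genes averaging 1 FPKM or more over the libraries were tested with limma 3.58.1 (R 4.3.3) on log2(FPKM + 1), two-sided, with Benjamini-Hochberg adjustment. With 2 against 2, an exact permutation test cannot go below 0.333. Reads were recovered from the FPKM steps with 1 length per gene, for 99.95% of the 34638 genes above 0. Where several lengths gave whole reads, the smallest was taken unless another lay close to the annotated length. This choice was made after seeing the library sums, which came to 1.00 to 1.06 times the authors' divisors. Of 58735 identifiers, 56513 had a symbol. Scripts were tested on simulated data. Python 3.11.15 was also used.

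The members and lists were chosen with earlier results of these data known. Named genes were the members, KIF26B, the other carbonic anhydrases, the 3 largest differences of each list, the 5 nearest profiles to CA2, its expressed neighbours and overlapping genes. One gene that this rule names is not reported here. NDRG1, HK2, ANGPTL4, NHERF1, SLC4A8, SLC26A7 and the marker genes stand outside this rule or were chosen after their values were seen. Alternatives were the replicate block, another pseudocount, other filters, median-of-ratios scaling, limma-voom on recovered reads and leaving out each library. A log2 ratio of mean FPKM with no pseudocount was added after seeing the data.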

Additional observations from a re-analysis of the deposited data

How the results depend on the processing

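The members' directions were the same under 11 alternatives each, with 0 reversed. Most of these alternatives could not reverse a direction, so the count is no support for the directions. In every member both KIF26B siRNA libraries lay on the same side of both controls, so leaving out a library or changing the pseudocount keeps the sign. The replicate block and the filters leave a member's difference unchanged. The log2 difference ranged from −1.31 to −1.16 for CA2, from 0.89 to 1.33 for CA11, from −1.08 to −0.31 for CA13 and from 0.08 to 0.91 for CA9. It ranged from −0.85 to −0.25 for CA12, from −0.34 to −0.08 for CA8 and from 0.02 to 0.45 for CA5B. CA13 and CA9 depend on KIF26B siRNA replicate 2: without it their differences were −0.31 and 0.08. Counted in reads, which are not per length, CA2 held 48.7% and 52.8% of the family in the controls and 28.1% and 23.2% in the KIF26B siRNA libraries.

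The 88 genes lower and 118 higher past the unadjusted thresholds became 203 and 217 with a pseudocount of 0.1, 52 and 69 with at least 1 FPKM in every library, and 204 and 194 with limma-voom on recovered reads. Leaving out 1 library each gave 132 to 230 lower and 155 to 333 higher, where a lone library is assumed to vary like the other group. Without KIF26B siRNA replicate 1, 2254 genes reached an adjusted p of 0.05 in limma, against 0 with all libraries. Leaving out 1 library each, the pathway lists had 0 to 3 lower and 0 to 2 higher: BNIP3L, ANGPTL4 and ANKRD37 were lower without KIF26B siRNA replicate 2, and NDRG1 and HK2 were higher without replicate 1. The replicate numbers did not pair the libraries (correlation of their deviations −0.0031 over 14523 genes), and the replicate block gave 98 lower and 135 higher.

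Levels near 1 FPKM rest on few reads, 30 to 69 for CA9, so differences there are limited by depth. KIF26B itself lay between the controls in the library labelled KIF26B siRNA replicate 1, on only 43 reads.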
